A study of Mus musculus with 42 samples.

Results

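A set of 10 genes that make, regulate or anchor the contractile apparatus of vascular smooth muscle was followed by name across every library of an RNA-seq series on disturbed flow in the mouse carotid artery. The members are Acta2, Tagln, Cnn1, Myh11, Myl9, Mylk, Smtn, Lmod1, Des and Myocd, which are 10 of the 21674 genes in the count table. All 10 were present in that table and were taken by name. The libraries were prepared from RNA flushed out of the carotid intima, the inner layer that carries the endothelium, and from cultured aortic endothelial cells.

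In smooth muscle, Acta2 builds the actin filaments and Myh11 the myosin filaments that slide past them. Mylk phosphorylates the light chain Myl9 and thereby switches the motor on, while Tagln, Cnn1, Smtn and Lmod1 bind or shape the actin filaments and Des forms intermediate filaments. Myocd, a cofactor of serum response factor (SRF), turns much of this set on through CArG boxes in its promoters. Acta2, Tagln and Myl9 are also known from other cells, such as myofibroblasts and endothelial cells in mesenchymal transition, whereas Myh11 is regarded as the most restricted marker of mature smooth muscle.

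Partial ligation of the left carotid artery produced low flow on that side, and the contralateral artery of the same animals served as the high-flow side. Untreated C57BL/6J males of 6 to 7 weeks gave low-flow, high-flow and sham-operated intima at 48 hr (3 libraries per group, each from a pool of 3 to 5 arteries). Males of the same strain and age received control IgG, anti-GPIba against platelets, anti-Gr1 against neutrophils and some monocytes, PBS liposomes, or clodronate liposomes against macrophages, and gave low-flow intima at 48 hr (2 libraries per group) and, for IgG and PBS liposomes only, high-flow intima (2 libraries per group). A further pool each with PBS and clodronate liposomes was sequenced with the 100 bp reads of the untreated pools, while the other treated libraries used 150 bp reads. At 7 days, intima came from Rbfox2 EC-KO mice, which combined floxed Rbfox2 (lox/lox) with the Rosa26-mTmG reporter and Cdh5(PAC)-CreERT2, and from controls with both Rbfox2 lox/lox and the reporter but no Cre (3 low-flow and 2 high-flow libraries per genotype, named by their column numbers 1, 4 and 5, mice of both sexes aged 2 to 7 months). The Cre is driven by an endothelial promoter, so that deletion is directed to endothelial cells. Cultures gave 1 library each: eGFP+ aortic endothelial cells sorted after 5 days from mTmG mice with the same Cre, sorted control and Rbfox2 EC-KO aortic endothelial cells after 7 days, and 1 TetOn-SV40 aortic endothelial line with SV40 off, either untreated or given 10% plasma, platelets with macrophages, or both for 48 hr.

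Total counts were 4064477 to 6794904 in the 9 untreated pools, 12286104 to 19035957 in the 14 treated libraries, 10318685 to 18633538 in the 10 libraries of 7 days and 4989843 to 16394043 in the 9 single libraries. Levels are given as FPKM, the count per kilobase of effective gene length scaled to the library total, which allows genes to be compared with each other. Differences are log2 fold changes from counts scaled by TMM, and were called at an adjusted p of 0.05. Nothing in the labels ties the libraries of a group to separate experiments beyond separate pools, so the p-values measure the spread between these pools. In bulk RNA, fewer cells of a type and less RNA per cell cannot be told apart. The headers place treated low-flow and treated high-flow libraries in different sequencing runs, so run and flow cannot be told apart in the treated mice, and they place low-flow library 1 of both 7-day genotypes in an earlier run than the other 8.

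CArG boxes were looked for in RefSeq promoters (GRCm38.p6, 250 bases before to 50 after the start), because they are the sequence through which SRF and Myocd act. Entries were found for 7 of the 10 members: Acta2, Cnn1, Myl9, Mylk, Smtn, Lmod1 and Des. The search covered both strands and kept overlapping matches. An exact CArG box was present in 1 of these 7 windows, that of Myl9, and in 535 of all 32851 windows (1.63%). With up to 1 other base allowed in the inner run, 2 of the 7 members had a match, Acta2 and Myl9, beside 3280 of all windows (9.98%). The matches are printed 5′ to 3′ on the strand of the gene, with the box in capitals, because these 2 genes are among the 3 that rose under low flow in every 48 hr comparison described further on. Coordinates are those of the printed stretches, each the box with 10 flanking bases on either side. The Acta2 boxes begin 84 and 34 bases upstream of the start (stretches chr19:34255438-34255467 and chr19:34255388-34255417, minus strand) and each holds 1 other base. Of the Myl9 boxes (stretches chr2:156775293-156775322 and chr2:156775355-156775384, plus strand), the one 161 bases upstream is exact and the one 99 bases upstream holds 1 other base.
Acta2, 84 bases upstream: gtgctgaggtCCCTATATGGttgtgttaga
Acta2, 34 bases upstream: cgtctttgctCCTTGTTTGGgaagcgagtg
Myl9, 161 bases upstream: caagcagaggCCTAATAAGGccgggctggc
Myl9, 99 bases upstream: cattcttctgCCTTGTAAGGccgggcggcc
A match describes the letters of the window and does not show that SRF was bound there.

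The 10 members lay at widely different levels in the intima. In the untreated high-flow pools at 48 hr, the mean levels ran from Acta2 at 200 ± 12.9 FPKM (SD, n = 3) through Tagln at 123 ± 18.9, Myl9 at 45.5 ± 8.54, Smtn at 8.74 ± 1.5, Cnn1 at 8.44 ± 1.92, Mylk at 3.85 ± 0.56 and Myh11 at 1.42 ± 0.556 to Lmod1 at 0.784 ± 0.358, Des at 0.775 ± 0.495 and Myocd at 0.237 ± 0.0546 FPKM. Neighbours from Smtn to Cnn1 and from Lmod1 to Des lay within their spread. Acta2 was the highest member in every intima group and in all 3 primary cultures. The members rarely seen were Des, at 0 counts in 14 of 42 libraries and never above 69, and Myocd, at 0 in 3 of 42 and never above 36. Counts of 3 or fewer are treated as not measurable, and this floor covers counting error only.

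**Figure D1:**
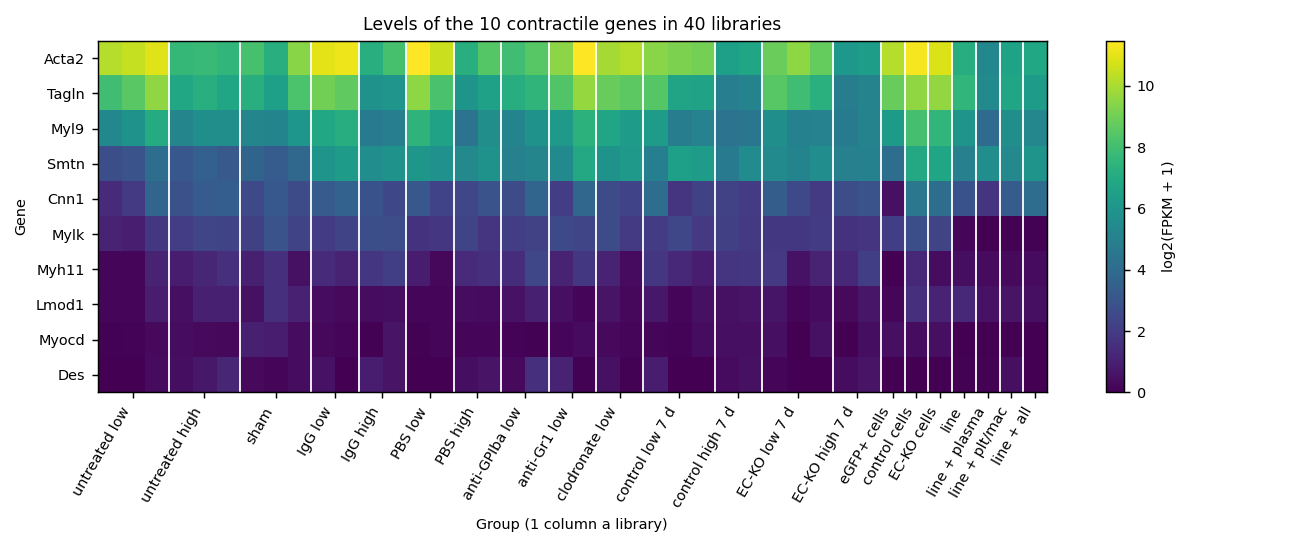
Level of each of the 10 members (rows) in 40 libraries (columns, grouped by condition), as log2(FPKM + 1) on a colour scale. Acta2, Tagln and Myl9 are bright in the low-flow intima and in the primary cultures, while Myh11, Lmod1, Des and Myocd stay near the floor of the scale throughout.

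Low flow at 48 hr split the set. Acta2 and Tagln rose strongly against the contralateral artery, Myl9 and Smtn rose less and passed with TMM scaling but not on library totals, Mylk fell, and the smooth muscle myosin Myh11 was lower in 2 of 3 low-flow pools without passing the test. Of the 8 members with enough counts to test, 4 were higher and 1 lower, beside 23.6% higher and 22.6% lower among all 11236 genes tested (46.2% in either direction). Myocd and Des were too low to test. Low-flow pools a and b stood apart in composition: their 20 most abundant genes took 28.9 and 30.2% of the counts, against 13.0 to 14.5% in the other 7 untreated pools, and 19.3 and 18.3% of their gene values were not whole numbers, against 6.27 to 9.83%. Among the 9 untreated pools the CPM of Myh11, Cnn1, Smtn and Mylk was lowest in these pools, and the part of composition in this was not tested.

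The actin of the thin filament, Acta2 (mm9 chromosome 19, 34315580 to 34329826, minus strand), stood at 1190, 1414 and 1907 FPKM in low-flow pools a, b and c and at 198, 213 and 188 FPKM in the high-flow pools. Every low-flow pool lay far above every high-flow pool. The log2 fold change was 3.62 ± 0.40 (SE, adjusted p = 4.44e-05, edgeR). Tagln, which encodes the actin-binding transgelin (chromosome 9, 45737711 to 45744141, minus strand), was at 247, 369 and 761 FPKM under low flow against 117, 144 and 107. The groups did not overlap, although the 3 low-flow pools differed among themselves more than those of Acta2. Its log2 fold change was 2.48 ± 0.30 (adjusted p = 7.8e-05). Tagln overlaps Pcsk7 on the other strand, and the counting options that the methods list hold no strand setting, so reads of the overlap may be shared. The calponin Cnn1 (chromosome 9, 21903725 to 21914074, plus strand), another actin binder, was at 1.68, 2.81 and 12.4 FPKM under low flow and at 6.24, 9.26 and 9.80 FPKM under high flow. Pools a and b of the low-flow side lay under all high-flow pools and pool c above them, and the log2 fold change was -0.13 ± 0.40 (adjusted p = 0.808).

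Among the genes of the motor, the regulatory light chain Myl9 (chromosome 2, 156601156 to 156607394, plus strand) reached 40.0, 57.8 and 132 FPKM under low flow and 35.7, 51.4 and 49.5 FPKM under high flow. Pools b and c exceeded every high-flow pool while pool a lay inside their range. After TMM scaling the log2 fold change was 1.32 ± 0.22 (adjusted p = 0.000817), whereas on library totals alone it was 0.75 (adjusted p = 0.147). Mylk, the myosin light chain kinase (chromosome 16, 34745296 to 35002520, plus strand), moved the other way, with 1.11, 0.940 and 2.63 FPKM under low flow against 3.22, 4.26 and 4.09 FPKM. All low-flow pools were under all high-flow pools, with a log2 fold change of -0.71 ± 0.20 (adjusted p = 0.0152, and -0.25 with adjusted p = 0.663 under scaling to endothelial markers). Myh11, the heavy chain of smooth muscle myosin (chromosome 16, 14194620 to 14291501, minus strand), was at 0.159, 0.105 and 1.11 FPKM under low flow, from 7, 3 and 41 counts, and at 0.909, 1.35 and 2.01 FPKM under high flow, from 25, 53 and 59 counts. Pool c overlapped the high-flow range and the others did not. The log2 fold change of -1.13 ± 0.50 did not pass the test (adjusted p = 0.086), but it did in 3 of 12 alternatives: on library totals (-1.61, adjusted p = 0.0222), with no filter on low counts (-1.13, adjusted p = 0.0269) and without low-flow pool c (-2.30, adjusted p = 0.00393, edgeR). Over the 12 alternatives it ran from -2.30 to -0.60.

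Of the remaining structural genes, Smtn, which encodes the actin-associated smoothelin (chromosome 11, 3417526 to 3440615, minus strand), was at 5.71, 6.61 and 16.8 FPKM under low flow and 7.57, 10.4 and 8.21 FPKM under high flow. The FPKM values overlapped, with pools a and b under and pool c above the high-flow pools. The call of a rise (log2 fold change 0.71 ± 0.21, edgeR adjusted p = 0.0159) held in 9 of 12 alternatives. It was lost on library totals (0.15, adjusted p = 0.814) and without low-flow pool c or high-flow pool c. The leiomodin Lmod1 (chromosome 1, 137221384 to 137264642, plus strand), which nucleates actin filaments, had 3, 2 and 19 counts under low flow and 6, 23 and 17 under high flow, with a log2 fold change of -0.55 ± 0.54 (adjusted p = 0.424). Desmin, Des (chromosome 1, 75356904 to 75365154, plus strand), had 0, 0 and 3 counts under low flow against 3, 8 and 12 under high flow, and Myocd (chromosome 11, 64990063 to 65083491, minus strand) had 2, 2 and 6 against 6, 7 and 4. TMM scaling left the median log2 fold change of all genes at -0.07, library totals at -0.69, and a scaling to the summed counts of 12 endothelial markers, chosen after the data were seen, at 0.37.

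**Figure D2:**
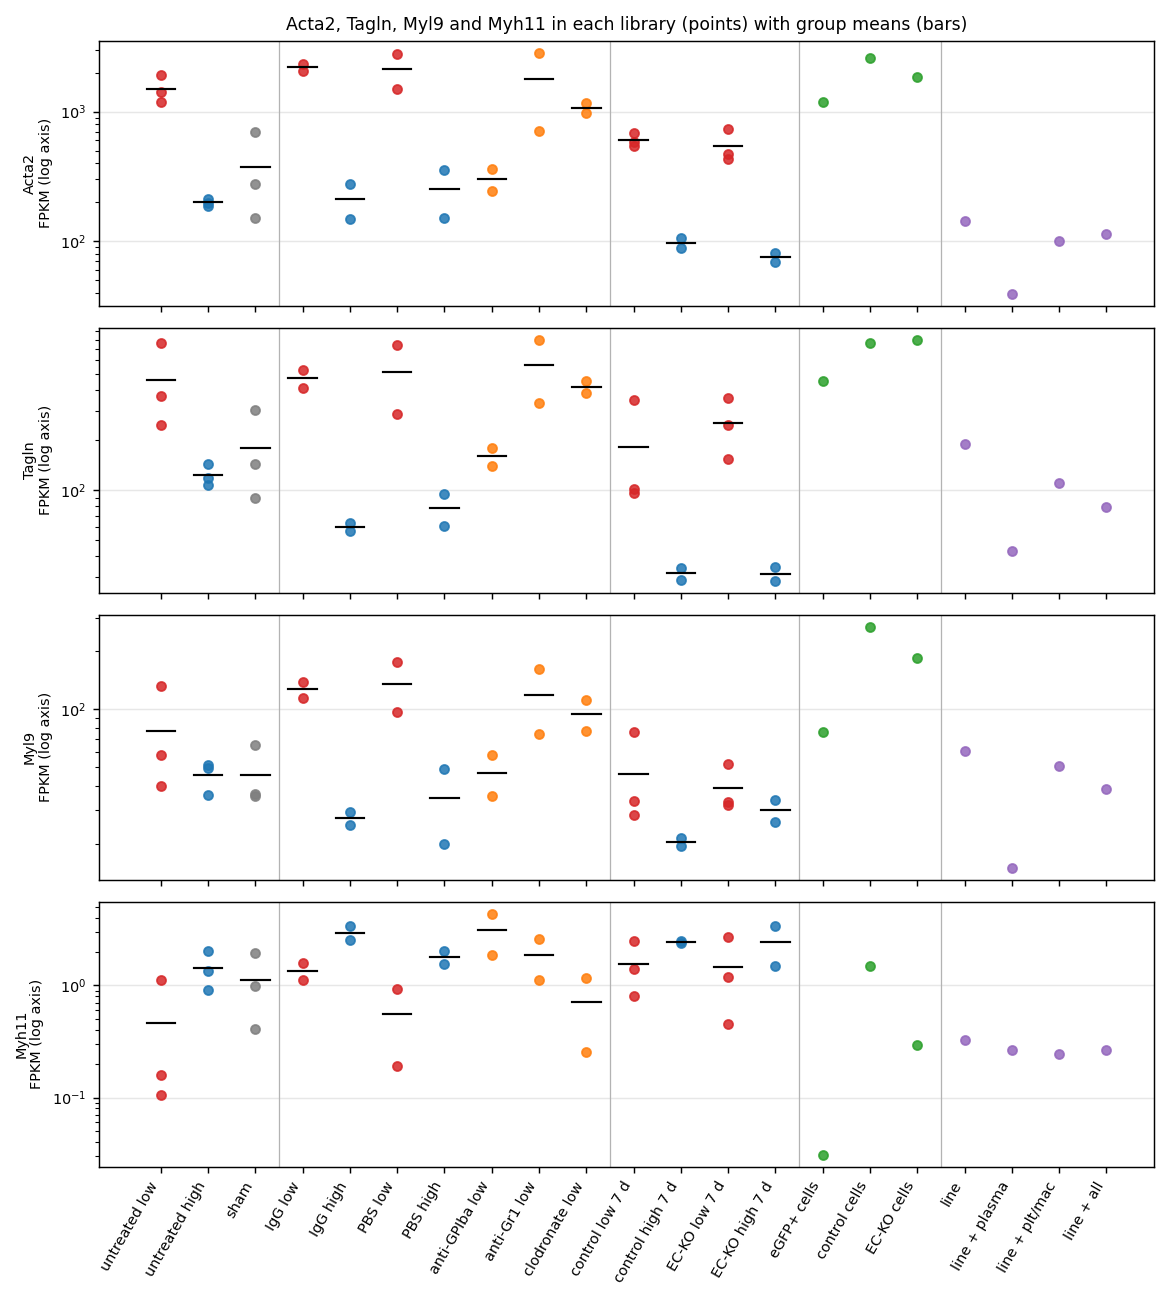
Level of Acta2, Tagln, Myl9 and Myh11 in each library (points, FPKM on a log axis) by group, with a bar at each group's mean. Acta2 lies at 1190 FPKM or higher in the 3 untreated low-flow pools and at 213 FPKM or lower in the 3 high-flow pools, while Myh11 is lower in low-flow pools a and b than in any high-flow pool.

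The balance of the members differed between the 2 sides of the same animals. In low-flow pools a, b and c the level of Acta2 per unit of Myh11 was 7461, 13516 and 1711, and in the high-flow pools it was 218, 158 and 93.3. In the sham pools it was 282, 78.3 and 1680, so that the unligated sham pool c, with 13 counts of Myh11, lay beside low-flow pool c. The value of pool b rests on 3 counts of Myh11, which leave a 95% counting interval of 4625 to 65541 (exact Poisson). Over the 48 hr libraries of the fits without depletion, the median of this ratio was 3049 under low flow (n = 7, range 1313 to 7762 in the 6 libraries with more than 3 counts of Myh11), which leaves out the single 100 bp pool with PBS liposomes at 2864, and 96.9 under high flow (range 58.6 to 218, n = 7). The ratio of Acta2 to Tagln differed far less, at 2.51 to 5.72 under low flow and 1.48 to 4.40 under high flow, and these ranges overlapped. Within experiments it was higher in every low-flow than in every high-flow library in the untreated pools (4.83, 3.83 and 2.51 against 1.68, 1.48 and 1.75) and with PBS liposomes (3.78 and 5.18 against 2.48 and 3.72), and it overlapped with IgG (3.95 and 5.72 against 2.60 and 4.40).

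**Figure D3:**
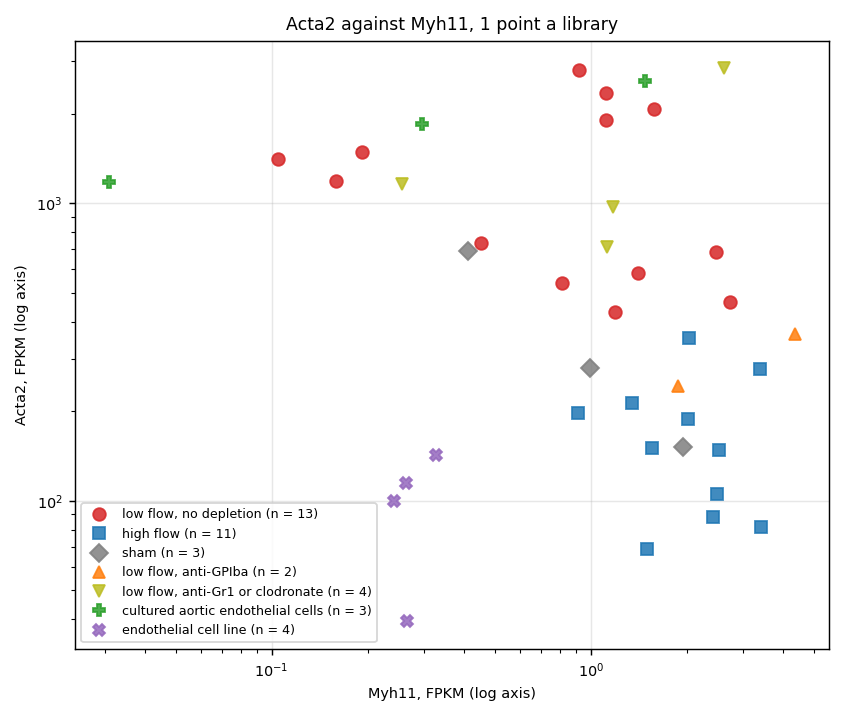
Acta2 against Myh11 in each library, in FPKM on log axes, with symbols for flow and depletion, the primary cultures and the line. All low-flow libraries without depletion lie at 432 FPKM of Acta2 or higher and all high-flow libraries at 352 FPKM or lower, while their Myh11 values overlap, sham pool c has a ratio close to that of low-flow pool c, and the 2 anti-GPIba libraries lie among or beside the high-flow ones. Low-flow pool b and the eGFP+ cells rest on 3 and 1 counts of Myh11.

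Markers of other cells moved with the same contrast. Of 13 macrophage markers tested, 11 were higher under low flow, beside 23.6% of all genes, and the list of 14 took 0.234 to 0.352% of the counts in the low-flow pools against 0.00784 to 0.018% in the high-flow pools. All 6 neutrophil markers tested were higher, and all fat cell markers tested were lower, beside 22.6% of all genes lower. Among 14 matrix genes of the arterial media, 13 were tested and 7 were lower and none higher, beside 22.6% of all genes lower, and the list took 0.562 to 0.628% of the counts under low flow against 1.22 to 1.43% under high flow. This list is not confined to medial cells. In the sorted eGFP+ endothelial culture it ran from 0 FPKM for Mfap4 and Cspg4 to 527 for Bgn and 742 for Mgp. The adventitial list took 0.00988, 0.00989 and 0.0586% under low flow and 0.0616 to 0.188% under high flow, so that pool c, the pool with most Myh11, Cnn1 and Des, was also the low-flow pool with most adventitial RNA. The 12 endothelial markers took 0.493 to 0.640% under low flow and 1.08 to 1.25% under high flow, with none at 0. Among smooth muscle genes outside the set, the 3 low-flow pools had 2, 0 and 13 counts of the integrin Itga8, 3, 2 and 6 of the channel subunit Kcnmb1 and 1, 0 and 3 of Notch3. The high-flow pools had 7, 24 and 32 counts of Itga8, 5, 8 and 7 of Kcnmb1 and 4, 1 and 7 of Notch3. Acta2 had at least 10271 counts in each low-flow pool. The part of these cells in the members' differences was not tested.

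Against sham, the question being whether the low-flow side or the high-flow side departed from an unligated artery, the low-flow side differed and the high-flow side did not. This comparison uses the same low-flow pools as the one above. Acta2 in sham pools a, b and c was 279, 152 and 693 FPKM, all lower than any low-flow pool, with a log2 fold change of 2.73 ± 0.61 for low flow over sham (adjusted p = 0.00958, edgeR). Tagln was at 144, 89.4 and 301 FPKM in sham, where pool c exceeded low-flow pool a, and its log2 fold change was 1.97 ± 0.46 (adjusted p = 0.0113). Myl9 was at 36.4, 35.4 and 65.0 FPKM in sham, overlapping the low-flow range, with a log2 fold change of 1.34 ± 0.30 (adjusted p = 0.00968, and 0.75 with adjusted p = 0.191 on library totals). Mylk was at 3.53, 6.55 and 4.14 FPKM in sham, above every low-flow pool, and was lower under low flow by a log2 fold change of -0.96 ± 0.25 (adjusted p = 0.0174). Thus 3 of 8 members tested were higher and 1 lower, beside 20.6% higher and 19.7% lower among all 11164 genes (40.3% in either direction).

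The other members did not pass the test against sham. Myh11 had 0.991, 1.94 and 0.412 FPKM in sham and a log2 fold change of -0.72 ± 0.65 (adjusted p = 0.392). Smtn stood at 12.1, 9.17 and 13.8 FPKM in sham (log2 fold change 0.33 ± 0.22, adjusted p = 0.263) and Cnn1 at 4.76, 8.01 and 5.22 FPKM (0.40 ± 0.44, adjusted p = 0.482). Lmod1 was lower by -1.04 ± 0.63 (adjusted p = 0.212), and Myocd, with 20, 17 and 7 counts in sham, had more counts in each sham pool than in any low-flow pool but was too low to test. Sham pool c stood apart: it had the most Acta2 and Tagln and the least Myh11 of the 3, and its macrophage markers took 0.0697% of the counts against 0.0232 and 0.0238% in the other sham pools. Without sham pool a, only 2 members were called, 1 higher and 1 lower, beside 21.9% of all genes, and Acta2 (adjusted p = 0.0535) and Tagln (adjusted p = 0.055) were no longer past the threshold.

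Between the high-flow and the sham pools no member passed the edgeR test (0 of 8, 0% of all 11030 genes), none passed 0.05 before adjustment, and DESeq2 gave no call either. The log2 fold change of Acta2 was -0.88 ± 0.46 (adjusted p = 0.71), that of Tagln -0.50 ± 0.39 and that of Myh11 0.42 ± 0.47. The Myl9 value was 0.03 ± 0.26. High-flow Acta2 lay within the range of the sham pools.

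In treated mice the same 3 genes rose under low flow. With IgG, Acta2 reached 2073 and 2349 FPKM under low flow and 148 and 278 FPKM under high flow (log2 fold change 3.28 ± 0.67, adjusted p = 0.004, edgeR). With PBS liposomes the values were 2803 and 1484 against 151 and 352 FPKM (3.21 ± 0.67, adjusted p = 0.00458). The groups lay several-fold apart in both treatments. Tagln stood at 525 and 410 FPKM against 56.8 and 63.2 FPKM with IgG (2.87 ± 0.50, adjusted p = 0.00208), and at 742 and 287 against 60.7 and 94.6 FPKM with PBS liposomes (2.84 ± 0.50, adjusted p = 0.00221). For Myl9 the IgG libraries gave 115 and 139 FPKM against 25.0 and 29.3 (2.14 ± 0.50, adjusted p = 0.00747), and the PBS libraries 176 and 96.5 against 19.8 and 49.1 FPKM (2.10 ± 0.50, adjusted p = 0.00883). For each of these genes the low-flow and high-flow libraries did not overlap in either treatment.

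Of 10 members tested, 3 were higher and none lower with IgG, beside 22.8% higher and 17.7% lower of all 13401 genes (40.5% in either direction), and the same 3 were higher with PBS liposomes, beside 19.6% and 15.5% (35%). Mylk was at 3.11 and 4.18 FPKM against 5.79 and 5.58 with IgG, and at 2.19 and 2.55 against 4.09 and 2.41 with PBS liposomes. Its log2 fold changes of -0.72 ± 0.32 (adjusted p = 0.0878) and -0.35 ± 0.32 (adjusted p = 0.415) did not pass, and scaling to the endothelial markers turned them to 1.01 and 0.91. Myh11 had 1.58 and 1.11 FPKM against 2.52 and 3.39 with IgG, and 0.919 and 0.191 against 1.55 and 2.02 with PBS liposomes. Every low-flow value of Myh11 but that of IgG library 1 lay under all 4 high-flow values, with log2 fold changes of -1.23 ± 0.78 (adjusted p = 0.224, and 0.46 under endothelial-marker scaling) and -1.57 ± 0.80 (adjusted p = 0.146). Des had 16 and 0 counts under low flow with IgG and 0 and 0 with PBS liposomes, against 22 and 14 and 10 and 15 under high flow.

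Smtn, Cnn1, Lmod1 and Myocd did not pass in either treatment. Smtn was at 60.5 and 81.2 FPKM against 48.3 and 57.7 with IgG, higher in both low-flow libraries by a log2 fold change of 0.33 ± 0.41 (adjusted p = 0.532). Its level differed between experiments: all 24 intima libraries of 150 bp reads lay at 26.3 to 121 FPKM, the 9 untreated pools of 100 bp reads at 5.71 to 16.8 FPKM, and the 100 bp pools with PBS and clodronate liposomes at 23.0 and 18.6 FPKM. Read length, run and alignment cannot be told apart here, and Smtn levels were compared only within an experiment. Cnn1 stood at 8.66 and 11.3 FPKM against 6.40 and 4.62 with IgG (0.78 ± 0.61, adjusted p = 0.321). Here too, other markers moved: endothelial markers took 0.75 and 0.607% of the counts under low flow with IgG against 2.10 and 2.05% under high flow, and of 14 macrophage markers tested 12 were higher and none lower, beside 22.8% higher and 17.7% lower of all genes.

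**Figure D4:**
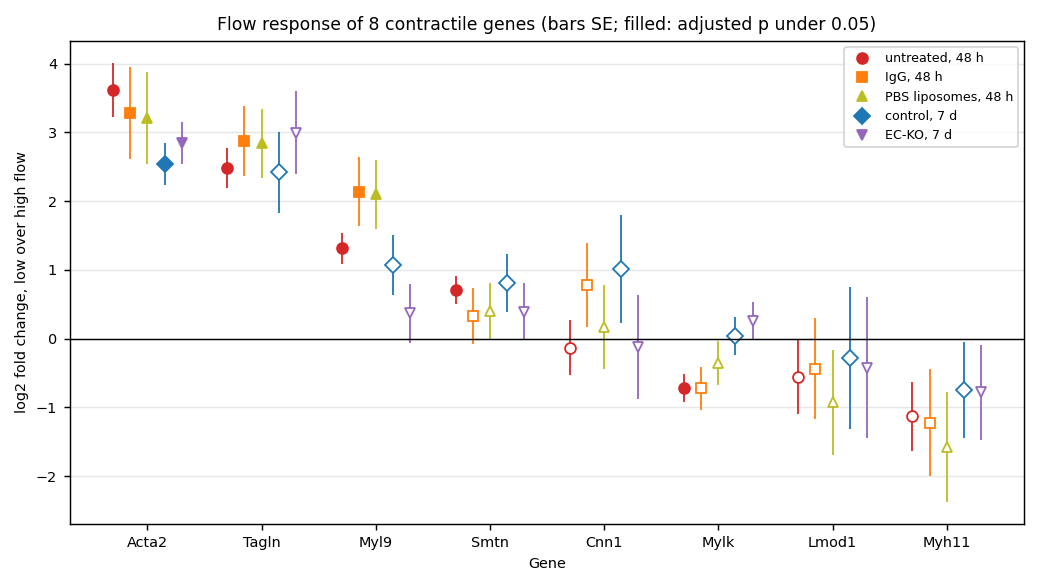
Log2 fold change of low over high flow for 8 members (horizontal axis) in 5 comparisons (symbols): untreated, IgG and PBS liposomes at 48 hr, and control and EC-KO at 7 days, with bars for the SE and filled points at an adjusted p under 0.05. Acta2 lies between 2.55 and 3.62, while Mylk and Myh11 lie at or below 0.25.

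Depletion was used to ask which recruited cells the response of the low-flow intima needs. Platelet depletion lowered Acta2 and Tagln. Acta2 was at 244 and 362 FPKM with anti-GPIba against 2073 and 2349 FPKM with IgG, under the same low flow. Both anti-GPIba values lay near the high-flow values of the IgG mice, and the log2 fold change was -2.90 ± 0.66 (adjusted p = 0.026, edgeR). Tagln was at 139 and 178 against 525 and 410 FPKM, with no overlap, and fell by 1.58 on the log2 scale (SE 0.48, adjusted p = 0.0455). Of the 10 members tested, 2 were lower and none higher, beside 10.5% lower and 6.05% higher among all 13401 genes (16.5% in either direction). The IgG low-flow libraries also enter the flow comparison with IgG, so the 2 comparisons are not independent.

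Myl9 was at 35.2 and 57.9 FPKM with anti-GPIba against 115 and 139 with IgG, and Smtn at 31.1 and 36.2 against 60.5 and 81.2. Neither overlapped, and the log2 fold changes of -1.48 ± 0.49 (adjusted p = 0.0583) and -1.11 ± 0.41 (adjusted p = 0.0811) did not pass. Myh11 went the other way, at 1.87 and 4.36 FPKM, from 213 and 509 counts, the latter the most of any library, against 1.58 and 1.11 FPKM (1.18 ± 0.78, adjusted p = 0.287). Des had 8 and 69 counts against 16 and 0, and Lmod1 33 and 68 counts against 19 and 15. Mylk was at 3.30 and 3.64 FPKM and Cnn1 at 5.35 and 12.2 FPKM, both overlapping the IgG libraries. The ratio of Acta2 to Myh11 was 131 and 83.1 with anti-GPIba, within the 58.6 to 174 of the treated high-flow libraries and below the 1313 to 7762 of the treated low-flow libraries without depletion.

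Other cells moved with platelet depletion as well. Macrophage markers took 0.0257 and 0.035% of the counts with anti-GPIba against 0.267 and 0.247% with IgG, with 8 of 14 tested lower and none higher, and 5 of 9 neutrophil markers tested were lower, beside 10.5% lower of all genes. The endothelial markers took 1.29 and 1.28% against 0.75 and 0.607%, with 2 of 12 tested higher, beside 6.05% of all genes. Their part in the fall of Acta2 was not tested. With any 1 of the 4 libraries left out, which leaves a group of 1 library whose spread is assumed to be that of the other treated groups, no member passed (0 members in each case). The log2 fold change of Acta2 was then -3.22 to -2.64 (adjusted p = 0.0531 to 0.168, edgeR). A fit of the 2 groups alone, a fit with the replicate number as a term (the replicate block) and DESeq2 each called 4 members, all lower, beside 34.5, 24.7 and 22.1% of all genes in either direction.

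Neutrophil and macrophage depletion gave no call among the members. With anti-Gr1, Acta2 was at 715 and 2843 FPKM, libraries that lay on either side of the IgG values (log2 fold change -0.27 ± 0.61, adjusted p = 0.825). Tagln was at 332 and 799 FPKM, Myl9 at 74.0 and 163, and Smtn at 43.4 and 121 FPKM, each lower in library 1 than in either IgG library and higher in library 2. No member passed the edgeR test (0 of 10, 0% of all genes), none passed 0.05 before adjustment, and DESeq2 gave no call either. With clodronate, Acta2 was at 972 and 1164 FPKM against 2803 and 1484 FPKM with PBS liposomes. Both clodronate libraries were lower, but the log2 fold change of -1.11 ± 0.62 did not pass (adjusted p = 0.411). Tagln was at 452 and 384 FPKM and Myl9 at 111 and 77.4 FPKM, and Myh11 at 1.17 and 0.257 FPKM, within or near the PBS range. No member passed (0 of 10, with 0.119% of all genes called), none passed 0.05 before adjustment, and DESeq2 gave no call either. In the 100 bp pools, with 1 library each and no replicate check, Acta2 was at 1104 FPKM with PBS and 920 FPKM with clodronate, and Tagln at 440 and 586 FPKM. Clodronate left macrophage markers at 0.0267 and 0.0256% of the counts against 0.143 and 0.242% with PBS liposomes.

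At 7 days the members were followed in mice with and without endothelial Rbfox2, an RNA-binding splicing regulator. Rbfox2 itself had 364, 530 and 190 counts in control low-flow libraries 1, 4 and 5 and 362 and 290 in control high-flow libraries 4 and 5, against 136, 14 and 58 and 84 and 127 in EC-KO. Acta2 was still higher under low flow in both genotypes and the call of Tagln differed between fits. In controls, Acta2 was at 686, 583 and 539 FPKM under low flow and 88.2 and 105 FPKM under high flow (log2 fold change 2.55 ± 0.31, adjusted p = 0.00817, edgeR). In EC-KO it was at 467, 736 and 432 FPKM against 69.1 and 81.6 FPKM (2.85 ± 0.31, adjusted p = 0.00658). In both genotypes all low-flow libraries lay several-fold above all high-flow libraries. Markers of other cells moved with this contrast too, and their part in it was not tested. The medial matrix list is counted among them, although its genes were also read in the sorted primary cultures. In controls the macrophage list took 0.0367 to 0.190% of the counts under low flow against 0.00678 to 0.0158%, the medial matrix list 0.307 to 0.70% against 1.40 to 1.85% and the endothelial list 0.673 to 1.28% against 1.85 to 1.91%. In EC-KO they took 0.113 to 0.203% against 0.0102 to 0.0120%, 0.445 to 0.507% against 1.23 to 1.37% and 0.935 to 1.12% against 1.97 to 2.06%. Acta2 was the only member called in either genotype in the unblocked fit, 1 of 10 tested, beside 0.959% higher and 1.44% lower of all 13352 genes in controls (2.4% in either direction) and 0.352% and 0.741% in EC-KO (1.09%).

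Tagln was at 346, 102 and 96.4 FPKM against 28.9 and 34.0 in controls (2.42 ± 0.59, adjusted p = 0.0551) and at 355, 247 and 154 against 28.5 and 34.3 in EC-KO (2.99 ± 0.60, adjusted p = 0.052), with no overlap in either. High-flow arteries are contralateral to low-flow ones, and with the replicate number as a block Tagln passed in controls (1.74, adjusted p = 0.00826) and in EC-KO (2.51, adjusted p = 0.00409, edgeR), where 22% and 9.86% of all genes were called. Tagln also passed with DESeq2, which called 13.9% of all genes in controls and 6.03% in EC-KO, and with no filter on low counts, which called 4.06% and 1.37%, and it passed in 6 of 13 alternatives in each genotype. Whether a shared column number marks the same mice is not given in the sources used here. Myl9 was at 76.6, 28.2 and 33.4 FPKM against 19.4 and 21.5 in controls and at 52.1, 31.8 and 33.1 against 25.9 and 33.8 in EC-KO, so that it was separate in controls and overlapped in EC-KO (1.08 ± 0.44, adjusted p = 0.16, and 0.37 ± 0.42, adjusted p = 0.716). Myh11 was at 2.47, 1.41 and 0.810 FPKM against 2.41 and 2.48 in controls and at 2.73, 0.452 and 1.19 against 1.50 and 3.41 in EC-KO, with overlap in both (-0.74 ± 0.70, adjusted p = 0.535, and -0.78 ± 0.70, adjusted p = 0.623; 0.41 and 0.17 under endothelial-marker scaling). The ratio of Acta2 to Myh11 was 172 to 1628 in the 6 low-flow libraries and 23.9 to 46.1 in the 4 high-flow libraries. Mylk was at 3.10, 4.42 and 2.79 FPKM against 3.45 and 2.88 in controls and at 2.67, 2.67 and 2.94 against 2.25 and 2.34 in EC-KO, where every low-flow library was above every high-flow library (0.25 ± 0.27, adjusted p = 0.695).

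Control low-flow library 1, from the earlier run, stood apart with the highest Tagln, Myl9 and Cnn1 (16.0 FPKM against 2.40 and 3.68) and 29 counts of Des against 0 and 0, and its endothelial markers took 1.28% of the counts against 0.673 and 0.696%. With the libraries of the later runs alone, an alternative added after the data were seen, 3 members were called in controls and 2 in EC-KO, beside 29.2% and 8.36% of all genes. Leaving out a high-flow library leaves a group of 1, with the spread taken from the other groups. The call of Acta2 was then lost without either control high-flow library (log2 fold change 2.40 and 2.71, adjusted p = 0.130 and 0.104) and without either EC-KO high-flow library (2.67 and 3.01, adjusted p = 0.169 and 0.0767), and that of the controls when they were fitted alone (adjusted p = 0.136).

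Loss of Rbfox2 gave no call among the members, in edgeR fits that called almost no gene. Under low flow Rbfox2 itself was not called. It was at 22.0, 38.5 and 18.4 CPM in control libraries 1, 4 and 5 and at 7.30, 1.14 and 4.18 CPM in EC-KO. The lack of a call therefore does not show that the members were unchanged. Under low flow the log2 fold change of EC-KO over control was -0.10 ± 0.25 for Acta2 (adjusted p = 0.919, edgeR) and 0.52 ± 0.48 for Tagln (adjusted p = 0.765), with 0 of 10 members and 0% of genes called. Under high flow Acta2 was at -0.41 ± 0.30 (adjusted p = 1), with 0 members and 0.00749% of genes called, and the difference in flow response between the genotypes was 0.30 ± 0.39 for Acta2 (adjusted p = 0.986), with 0 members and 0% of genes called. In these 3 comparisons no member passed 0.05 before adjustment, and DESeq2 gave no call. With control low-flow library 1 left out, 2 members were called between the genotypes under low flow, beside 11.1% of all genes: Tagln was higher in EC-KO (log2 fold change 1.36, adjusted p = 0.0306) and Smtn lower (-0.998, adjusted p = 0.0292). With the later runs alone, neither passed (adjusted p = 0.0702 and 0.0798).

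In culture, where no flow or vessel wall is present, the primary endothelial cells carried Acta2 at levels of the low-flow intima. The eGFP+ cells had 1180 FPKM of Acta2 (9630 counts), 451 of Tagln, 76.2 of Myl9, 16.9 of Smtn and 3.35 of Mylk, but 4 counts of Cnn1, 1 count of Myh11 and none of Des. Their macrophage list took 0.0024% and their medial matrix list 0.237% of the counts, and Itga8, Kcnmb1 and Notch3 had 3, 2 and 0 counts. Of the 14 macrophage markers 8 were at 0, among them Emr1, Itgam and C1qa. The control culture had 2576 FPKM of Acta2 (61362 counts), 760 of Tagln, 269 of Myl9, 120 of Smtn and 22.3 of Cnn1, with 139 counts of Myh11 and none of Des. Its macrophage list took 0.0351% of the counts, with 4166 counts of Lyz2, 107 of C1qb and 117 of C1qc and only Fcgr1 at 0, its medial matrix list took 0.827%, and Itga8, Kcnmb1 and Notch3 had 97, 47 and 22 counts. In the Rbfox2 EC-KO culture, Acta2 was at 1850 FPKM, Tagln at 793, Myl9 at 186, Smtn at 108 and Cnn1 at 16.1 FPKM, with 19 counts of Myh11. Its macrophage list took 0.00122%, with 8 markers at 0, and its medial matrix list 0.573% of the counts, and Itga8, Kcnmb1 and Notch3 had 161, 25 and 0 counts. The part of other cells in these levels was not tested. The endothelial markers took 0.437 to 0.655% of counts in the 3 cultures. The Acta2 to Myh11 ratio was 1743 in the control and 6247 in the EC-KO culture, and 38018 in the eGFP+ cells, where it rests on 1 count of Myh11 (95% interval 6823 to 1501620, exact Poisson, counting error only). Each is 1 library, so no test between them was made.

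The immortalized line held less Acta2, Tagln and Myl9 than the primary cultures, but more Cnn1 than the eGFP+ cells. The eGFP+ library had 100 bp reads and those of the line 150 bp reads, so their Smtn levels were not compared. Untreated, it had 143 FPKM of Acta2, 188 of Tagln, 61.0 of Myl9, 31.4 of Smtn and 6.48 of Cnn1, with 31 counts of Myh11 and 17 of Mylk. With plasma, Acta2 was at 39.5, Tagln at 42.7 and Myl9 at 15 FPKM, with platelets and macrophages they were at 100, 110 and 50.6 FPKM, and with all together at 115, 79.1 and 38.6 FPKM. Smtn ran from 31.4 to 61.1 FPKM over these 4 libraries and was the highest member with plasma alone. Mylk had at most 17 and Myh11 22 to 31 counts. The endothelial markers of the line took 0.0303 to 0.0378% of the counts, far less than in the primary cultures, although none was at 0. In the untreated line they ran from Cldn5 at 0.161 to Pecam1 at 55.0 FPKM. The adventitial list took 0.143 to 0.251% of the counts of the line. The 4 conditions have 1 library each and no replicate check.

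Lists of related smooth muscle genes were counted in the 48 hr low against high flow comparison, where 23.6% of all genes were higher and 22.6% lower and the median log2 fold change was -0.07. Of 34 other genes of the contractile apparatus and its anchorage, 31 were tested and 9 were higher and 6 lower (median 0.34). The transgelin relative Tagln2 (log2 fold change 2.90 ± 0.53, adjusted p = 0.00122, edgeR), the calponin relative Cnn2 (2.03 ± 0.32) and the integrin Itga5 (1.85 ± 0.33) rose most, and Fhl1 (-2.20 ± 0.37), the myosin phosphatase subunit Ppp1r12c (-1.73 ± 0.35) and Synpo2 (-1.72 ± 0.40) fell most. Tagln2 and Cnn2 fell with anti-GPIba (-1.50 ± 0.37, adjusted p = 0.0304, and -1.44 ± 0.44, adjusted p = 0.0476). Genes named are those with the largest changes of their list, not a sample of it.

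Among SRF, its cofactors and repressors of the programme, 18 of 21 were tested and 3 were higher and 6 lower (median -0.66), beside the 23.6% and 22.6% of all genes. The cofactors Fhl2 (4.97 ± 0.63) and Mkl1 (1.28 ± 0.33) and the SRF partner Elk3 (1.17 ± 0.24) rose, while the flow-responsive repressor Klf4 (-4.21 ± 0.33, adjusted p = 4.8e-06, edgeR), Tbx18 (-1.63 ± 0.42) and Foxo4 (-1.34 ± 0.34) fell. With IgG, Klf4 fell too (-3.79 ± 0.60, adjusted p = 0.00144), while Mkl1 and Elk3 did not pass (-0.48 ± 0.40 and 0.30 ± 0.25). Of 30 channels, receptors and cyclic GMP signalling genes of smooth muscle only 9 had counts enough for the test, and 2 were higher (Rgs2 at 2.66 ± 0.50 and Gucy1b3 at 1.08 ± 0.33) and 3 lower (Pde3a at -1.22 ± 0.26, Itpr1 at -1.08 ± 0.22 and Npr1 at -0.95 ± 0.24), with a median of -0.64, beside the same 23.6% and 22.6%.

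Of the TGF-beta list, 23 of 24 were tested and 6 were higher and 9 lower (median -0.18), beside 23.6% and 22.6% of all genes. Tgfbi (5.82 ± 0.46, adjusted p = 5.21e-06, edgeR) and the repressor Snai1 (4.23 ± 0.62) rose, and Twist1 (-2.18 ± 0.36), the inhibitory Smad7 (-1.56 ± 0.25) and the co-receptor Tgfbr3 (-1.34 ± 0.38) fell. With anti-GPIba, Tgfbi fell (-4.35 ± 0.55, adjusted p = 0.00595) and Tgfbr3 rose (2.30 ± 0.54, adjusted p = 0.0279). In the medial matrix list, with a median of -0.85, elastin itself, Eln (-2.65 ± 0.33), and the microfibril genes Mfap5 (-3.02 ± 0.30) and Mfap4 (-2.32 ± 0.55) fell. Eln did not change past the threshold with anti-GPIba (-0.17 ± 0.61, adjusted p = 0.855).

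Likeness of pattern was described by the correlation of log2 CPM across the 33 intima libraries of the 3 experiments, after each experiment was centred on its mean, among 10488 genes with a mean CPM of at least 5. The libraries share depth, scaling and the large flow contrast, so the coefficients are a description. Most like Acta2 were Angpt2 (r = 0.930), Cxcl12 (0.928), Hbegf (0.925), Sdcbp2 (0.923) and Tagln (0.923), which was the only member among the 5. Myl9 ranked 290 (0.813), Smtn reached 0.491 and Cnn1 0.053, while Myh11 was at -0.545. Mylk was at -0.390 over all libraries, from -0.756 in the untreated, -0.381 in the treated and 0.377 in the 7-day libraries. Most like Myh11 were Kdm3b (0.854), Rab3gap1 (0.845), Anks3 (0.822), Serac1 (0.819) and Prpf40b (0.817), with Cnn1 at 0.589, Mylk at 0.571 and Tagln at -0.388. Lmod1, Des and Myocd were too low to rank.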

How the data were processed

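The authors aligned reads and deposited RSEM expected counts per gene (STAR 2.5.1b and RSEM 1.2.15 per the submitters' processing notes). The methods name another aligner, TopHat, for the untreated pools. Of 204 value columns, 162 were not used: TPM and RPKM values, and 26 count columns that hold second runs, the first runs of 2 libraries whose repeat was used (control low-flow 5 and EC-KO low-flow 4 at 7 days) or reads trimmed to 100 bp. 1 row without a gene name was left out.

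Expected counts were rounded and tested with edgeR 4.0.16 (quasi-likelihood test, filterByExpr, TMM, Benjamini-Hochberg adjustment over all genes tested) in R 4.3.3, two-sided, separately for untreated, treated and 7-day libraries. The deposited counts of the first of the repeat runs of the untreated pools were used. FPKM was computed from unrounded counts and the deposited effective length. A floor of 3 counts limits single values. Tests were checked on simulated counts. Same-numbered EC-KO and control low-flow libraries deviated together from their group means in all 3 pairs (correlations 0.560, 0.204 and 0.419 for libraries 1, 4 and 5, with both libraries 1 from the earlier run). DESeq2 1.42.0, other scalings, no filter, a replicate block, fits of the groups alone or together, and omission of each library were tried. Tables and figures used Python 3.11.15, pandas 2.3.3, numpy 2.4.6 and matplotlib 3.10.9.

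All 10 members are named throughout. Of each related list, the 3 genes higher and the 3 lower with the largest changes past the threshold in the 48 hr flow comparison are named, and the 5 genes most like Acta2 and Myh11, except 1 gene that is not reported here. The members and lists were chosen with earlier results of these data known. Further lists of skeletal, cardiac, platelet, fat and nerve markers were counted: of their members tested under low against high flow at 48 hr, 0 of 2, none tested, 2 of 6 (1 higher, 1 lower), 8 of 8 (all lower) and 2 of 2 (1 higher, 1 lower) were called. Of all genes tested 46.2% were called, 23.6% higher and 22.6% lower. RSEM splits reads shared by near-identical genes, such as the actins, by estimate. Mm9 coordinates are those of GENCODE vM1.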

Additional observations from a re-analysis of the deposited data

Results flagged for a closer look

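The low-flow and high-flow libraries of Mylk lay in opposite orders at 48 hr, untreated and with IgG, and at 7 days in EC-KO mice. In the untreated pools it was at 8.54, 7.21 and 20.2 CPM under low flow and 24.6, 32.7 and 31.3 CPM under high flow, a log2 ratio of means of -1.30 on library totals. The TMM-scaled fit gave -0.71 (edgeR adjusted p = 0.0152), which fell to -0.25 (adjusted p = 0.663) under endothelial-marker scaling and lost its call in 3 of 12 alternatives (adjusted p = 0.0135 to 0.663). With IgG it was at 23.9 and 32.0 CPM against 44.4 and 42.8 CPM (-0.64). In EC-KO at 7 days it was at 20.5, 20.5 and 22.6 CPM against 17.3 and 17.9 CPM (0.27), so every library lay in the other order. The difference between these orders was not tested. Of the 3 fitted fold changes only the untreated one passed (edgeR adjusted p = 0.0878 with IgG and 0.695 in EC-KO). The IgG value turned to 1.01 under endothelial-marker scaling, and the 7-day controls were at 0.04. With PBS liposomes at 48 hr the low-flow and high-flow libraries overlapped, with a fitted log2 fold change of -0.35 (edgeR adjusted p = 0.415). The ages and sequencing runs of these mice differ as well.

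Acta2 was also present in cultures that enter no comparison. The primary eGFP+ aortic endothelial cells, sorted and kept without a vessel wall, had 1930 CPM of Acta2, within the range of the low-flow intima, and the untreated TetOn-SV40 line had 234 CPM.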

How the results depend on the processing

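The rise of Acta2 under low flow against high flow at 48 hr kept its call under all 12 alternatives (log2 fold change 2.91 to 3.99). Counts of called members moved as follows. The share of all genes called is given above for some of these fits. For the others, endothelial-marker scaling among them, it is not given, and their counts are not read as particular to the members. Endothelial-marker scaling also put the median log2 fold change of all genes at 48 hr above that under TMM. For anti-GPIba (2 in the report), DESeq2, the replicate block and the 2 groups alone each gave 4 and endothelial-marker scaling gave 5, and leaving out a library gave 0. Endothelial-marker scaling gave 6 with IgG (3 in the report), 5 with PBS liposomes (3), 6 in 7-day controls (1) and 3 in 7-day EC-KO (1). In 7-day controls, DESeq2, no filter and the replicate block each gave 2, the 2 groups alone 0 and the later runs alone 3, and leaving out a library gave 0 to 3. In 7-day EC-KO, DESeq2, no filter, the replicate block, the 2 groups alone and the later runs alone each gave 2, and leaving out a library 0 to 1. Leaving out a library gave 2 to 5 against sham, 1 to 3 with PBS liposomes (1 without PBS high-flow library 1, where Acta2 had an adjusted p of 0.0579 by edgeR) and 0 to 2 for EC-KO against control under low flow. Smtn lost its call at 48 hr without low-flow pool c (edgeR adjusted p = 0.0599) or high-flow pool c (0.0573), and Mylk without low-flow pool a or high-flow pool b.

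Directions turned, with no called value in the report, under endothelial-marker scaling for Mylk with IgG (1.01) and PBS liposomes (0.91), for Myh11 with IgG (0.46), in 7-day controls (0.41) and in EC-KO (0.17), and for the Acta2 difference between genotypes in flow response (-0.0039). They turned on leaving out a library for Acta2 with anti-Gr1 (range -1.67 to 0.43), Mylk with PBS liposomes (-0.69 to 0.11), Acta2 in EC-KO against control under low flow (-0.41 to 0.053) and the Acta2 difference in flow response (-0.0062 to 0.47), and with the later runs alone for Acta2 in EC-KO against control (0.082). The cause was not tested.

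No paired analysis was possible for the untreated pools because their columns carry letters in place of replicate numbers. In the treated mice, where 2 libraries per group give 1 value per pair of groups, same-numbered libraries deviated together in some pairs of groups only: 9 of 21 correlations were over 0.1 (range -0.188 to 0.603). Among the groups compared these were PBS low with PBS high flow (0.536), clodronate with PBS (0.515) and anti-Gr1 with IgG (0.108), but not IgG low with IgG high flow (0.0198) or anti-GPIba with IgG (-0.0129). In the 7-day mice 13 correlations ran from -0.0507 to 0.560. For EC-KO against control under low flow, where all 3 pairs did, the replicate block put Tagln at 0.72 (edgeR adjusted p = 0.444) and called 0 members. Beside anti-GPIba and both 7-day flow comparisons, above, the replicate block moved no count of called members. The second sequencing run of the untreated pools and its sum with the first were fitted as planned and then withdrawn. The columns of both runs give only the group of a pool, and 1 column per sample was kept, that of the first run. In the second run alone Mylk missed the threshold for low against high flow at 48 hr, while the other called members kept their calls. The untreated pools, the shallowest libraries, leave Myh11, Lmod1, Des and Myocd at few counts. In the deeper treated libraries Myh11 did not pass in the main fit either, and it passed in 1 of 11 alternatives with IgG and in 1 of 11 with PBS liposomes.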
